A study of Homo sapiens with 48 samples.

Results

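The RASSF family is a set of proteins that carry a Ras-association domain, through which they bind small GTPases of the Ras and Rap kind. RASSF1 to RASSF6 have this domain next to a SARAH domain at their C-terminal end, which pairs with the SARAH domain of the Hippo kinases STK3 and STK4, and several of them act as brakes on growth. RASSF7 and RASSF8 carry the Ras-association domain near their N-terminal end and lack a SARAH domain. The members described here are RASSF1 to RASSF8, found by gene symbol: 8 of the 58870 genes in the table, all 8 among the 16697 that passed a filter on low counts. RASSF1 was chosen by its counts in these data, high in CLIP cells and low in WT cells after knockdown of UPF1, so its values in the CLIP and WT lines are given as a description with no test, and its relatives RASSF2 to RASSF8 are set beside it.

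UPF1 is a helicase that drives nonsense-mediated mRNA decay (NMD), a pathway that removes transcripts whose stop codon lies well upstream of an exon junction. RNA came from lines of Flp-In 293 T-REx, derived from human embryonic kidney and built to take a transgene at a fixed site, which were kept in hygromycin B. The 6 mutant lines expressed CLIP-tagged UPF1 labelled F192E, I757R, E797R, FE-ER, IR-ER and LECY, the WT line expressed CLIP-tagged wild-type UPF1, and the CLIP line carried the tag alone. FE-ER, IR-ER and LECY are not spelled out by the labels and are used as names only. Every line was transfected with 40 nM of an siRNA against endogenous UPF1 (siUPF1) or of a non-targeting siRNA (siNT) and harvested after 72 hours, with 3 biological replicates in each of the 16 groups, or 48 libraries. How strongly the transgene was induced, and whether each line was 1 clone, is not given in the sources used here.

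The 48 libraries held 6016999 to 14551820 estimated counts, and each correlated with the other libraries of its own group at a median r of 0.9752 to 0.9861 over genes. UPF1 itself averaged 20.4 ± 0.916 CPM (counts scaled to a common library size) in CLIP cells with siUPF1 and 105.7 ± 7.45 CPM in CLIP cells with siNT (SD, n = 3 each). In the 7 lines with a UPF1 transgene the siUPF1 group means lay between 3260 CPM (LECY) and 4819 CPM (FE-ER), and the table does not separate transgene reads from the endogenous transcript, so the knockdown can be read only in CLIP cells. The table gives 1 value per gene, which cannot separate NMD-type transcripts from coding ones, and fewer cells of a kind cannot be told apart from less RNA per cell.

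The stop codons of the family are shown because they set which annotated transcripts are of the NMD type. In GENCODE 29 (hg38) RASSF1 has 2 transcripts of the NMD type, RASSF7 has 2, RASSF3, RASSF4 and RASSF8 have 1 each, and RASSF2, RASSF5 and RASSF6 have none. The RASSF1 gene lies on chromosome 3 from 50329782 to 50340980 on the minus strand. RASSF1-204 lacks 1 exon of 119 bases that RASSF1-202 includes, and RASSF1-207 lacks 2 exons with 212 bases that RASSF1-203 includes; both lengths leave a remainder of 2 when divided by 3, so the reading frame shifts. The last coding bases are given in the direction of translation, with the stop codon in capitals.
RASSF1-204, stop at chr3:50332126-50332128: cgacgagcctgtggagtgggagacaccTGA
RASSF1-207, stop at chr3:50331648-50331650: gcatgtgctgtcacgcacaagggcacgTGA
RASSF1-203, coding, stop at chr3:50330581-50330583: gaggccctgcacgcctgcccccttgggTGA
RASSF3-201, stop at chr12:64691521-64691523: gggaacatccactctacctgcgtttggTAG
RASSF4-209, stop at chr10:44980901-44980903: cagctgagacaccgtgaggaagctcagTGA
RASSF7-203, stop at chr11:562320-562322: tgtaaagccacgggctgcgctgggctgTGA
RASSF7-208, stop at chr11:563378-563380: aggacctggcccagccccactccaagcTGA
RASSF8-208, stop at chr12:26068816-26068818: ggttttaatcctgaaggcatatatgtaTGA

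In RASSF1-204 the frame ended after 92 codons with 3 exon junctions still downstream, the last of them 490 bases past the stop codon. In RASSF1-207 it ended after 152 codons with 2 junctions downstream, the last 205 bases away. The coding transcripts RASSF1-202 (344 codons), RASSF1-203 (340 codons) and RASSF1-201 (270 codons) share the third RASSF1 stop codon above, in the last exon, with no junction after it. RASSF1-201 starts at an internal promoter, so its first exon is its own. Among the relatives the distance past the stop codon to the last junction was 454 bases in RASSF7-203, 417 in RASSF4-209, 105 in RASSF8-208, 98 in RASSF7-208 and 56 in RASSF3-201. RASSF7-208 and RASSF8-208 end at a stop codon that a coding transcript of the same gene also uses.

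**Figure D1:**
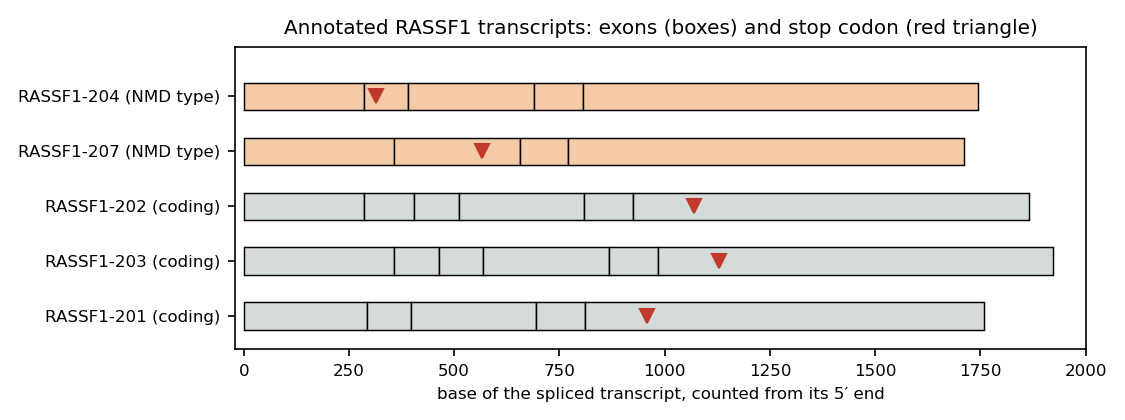
Exons (boxes) and stop codon (red triangle) of 5 annotated RASSF1 transcripts along the spliced RNA in bases from the 5′ end, with NMD-type transcripts in orange and coding ones in grey. The stop codon sits with 3 junctions after it in RASSF1-204 and 2 in RASSF1-207, and in the last exon of the coding transcripts.

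The members stood at very unequal levels before any knockdown. As CPM per kilobase of annotated exon, the median over the 24 siNT libraries was 10.8 for RASSF3, 7.10 for RASSF8, 3.84 for RASSF1, 3.60 for RASSF7, 3.21 for RASSF2 and 1.99 for RASSF5. RASSF4 (0.174) and RASSF6 (0.147) were far below these, at 4 to 32 and 4 to 16 counts per siNT library, so their values carry the most counting error. The siNT ranges of RASSF1 (2.96 to 4.79), RASSF7 (2.69 to 4.28) and RASSF2 (2.17 to 4.34) overlapped, as did those of RASSF4 (0.0597 to 0.396) and RASSF6 (0.0858 to 0.297).

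**Figure D2:**
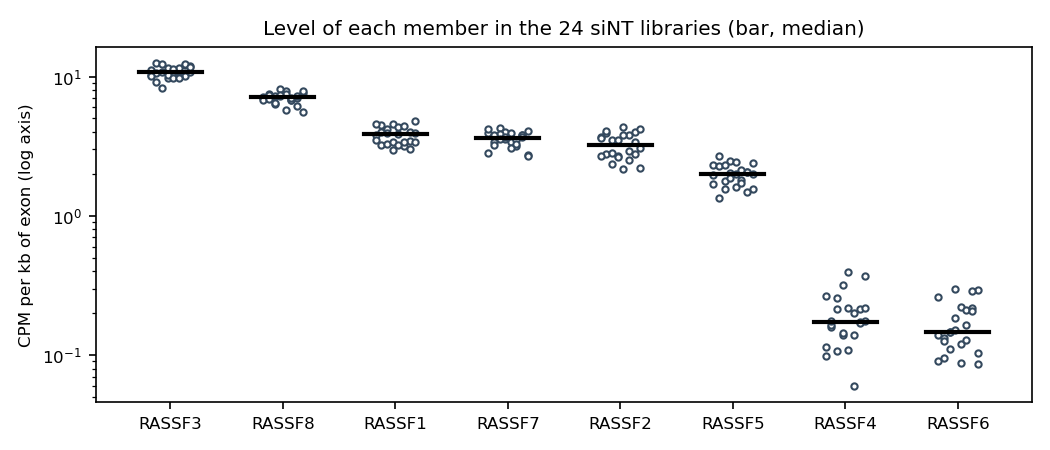
CPM per kilobase of annotated exon (log axis) of each member in the 24 siNT libraries (open points, with the median as a bar). RASSF3 and RASSF8 stand highest, and RASSF4 and RASSF6 lie below 0.4 in every siNT library.

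Within each line, siUPF1 was set against siNT in 1 edgeR quasi-likelihood model over all 48 libraries, and genes with an adjusted p under 0.05 are said to be called. The number of members called was 3 of 8 in F192E cells (21.8% of all genes tested), 3 of 8 in FE-ER cells (18.6% of all genes), 2 of 8 in I757R cells (15.9%), 3 of 8 in IR-ER cells (17.0%), 3 of 8 in E797R cells (16.1%) and 2 of 8 in LECY cells (29.4%). Among the 7 relatives of RASSF1, 2 were called in WT cells (15.4% of all genes) and 2 in CLIP cells (33.7%). In the 6 mutant lines the members' median log2 change lay between 0.11 (E797R) and 0.29 (F192E). That of all genes tested lay between -0.01 (LECY) and 0.02 (IR-ER) in the same lines. With 8 members these shares are not read as differing from the background. They pool opposite directions, since the log2 change of RASSF2 was negative and that of RASSF5 positive in all 8 lines, as it was in 23.6% and 23.4% of all genes tested.

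**Figure D3:**
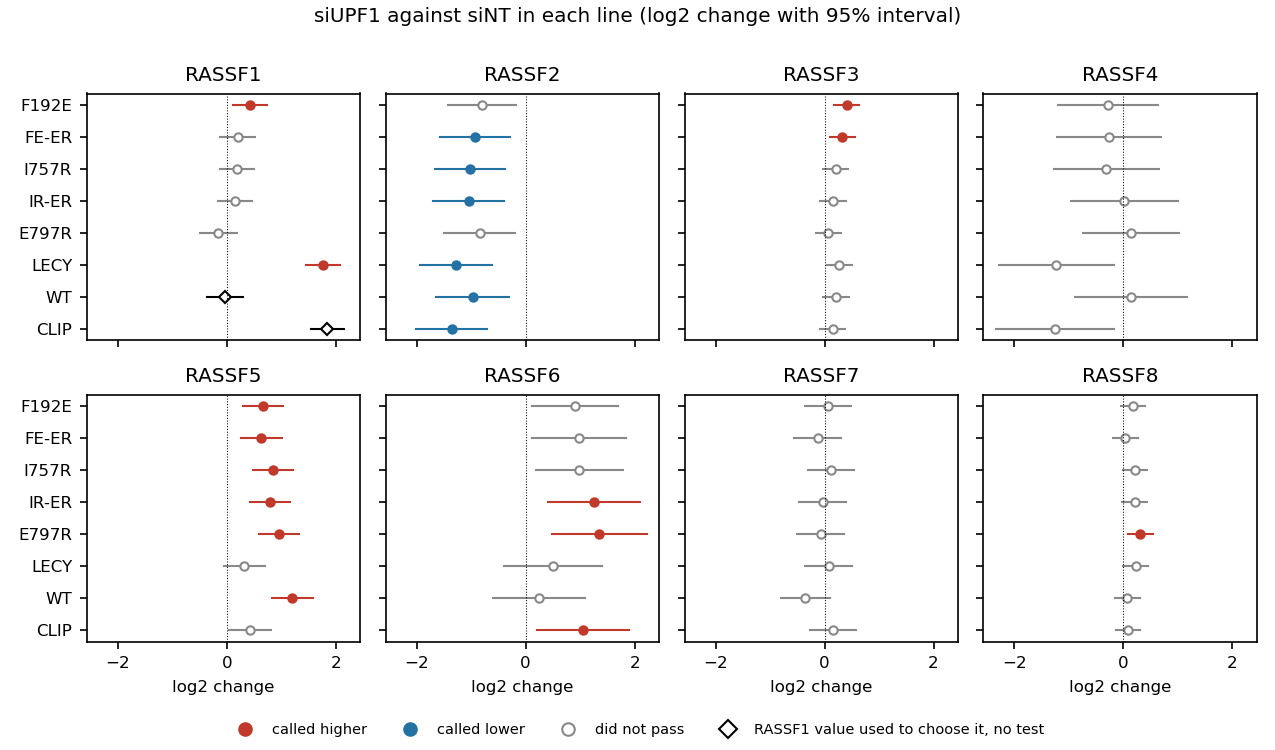
Log2 change of siUPF1 over siNT with its 95% interval for each member (panels) in each line (rows); filled points were called (red higher, blue lower), open circles did not pass, and diamonds mark the RASSF1 values in WT and CLIP cells, which carry no test. RASSF1 stands apart in LECY cells (1.76) and CLIP cells (1.84), while RASSF2 lies left of 0 and RASSF5 right of 0 in all 8 lines.

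RASSF1 encodes a tumour suppressor that binds microtubules and the Hippo kinases and is silenced by promoter methylation in many cancers. In LECY cells it stood at 37.8, 45.2 and 39.0 CPM with siUPF1, against 12.4, 11.1 and 12.4 CPM with siNT. In WT cells it stood at 17.8, 14.7 and 10.8 CPM with siUPF1, against 16.7, 15.9 and 11.8 CPM with siNT. In CLIP cells it stood at 40.2, 44.7 and 51.1 CPM with siUPF1, against 14.1, 11.9 and 12.1 CPM with siNT. The siUPF1 libraries of LECY and CLIP cells therefore all lay above every other library of the series, and those of WT cells overlapped with the siNT libraries of their own line. The share of all genes that lay apart from the whole series in this way was not computed. Of all genes tested, every siUPF1 library lay above every siNT library of the line in 18.8% (F192E), 14.7% (I757R), 15.0% (E797R), 17.6% (FE-ER), 17.1% (IR-ER), 20.1% (LECY), 13.2% (WT) and 23.3% (CLIP).

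The other mutants gave RASSF1 levels near the siNT ones. In F192E cells it stood at 20.1, 20.4 and 15.6 CPM with siUPF1, against 14.8, 14.5 and 12.8 CPM with siNT. In FE-ER cells the values were 18.3, 16.03 and 14.8 CPM with siUPF1, against 16.6, 15.4 and 10.9 CPM with siNT. Only the F192E groups were free of overlap. In I757R cells they were 16.9, 15 and 17.04 CPM with siUPF1, against 14.2, 16.2 and 12.7 CPM with siNT. In IR-ER cells they were 18.9, 16.04 and 19.8 CPM with siUPF1, against 17.6, 16.8 and 14.7 CPM with siNT. E797R cells had the lowest siUPF1 mean of the 8 lines. There RASSF1 stood at 12.1, 10.1 and 12.7 CPM with siUPF1, against 14.5, 12.5 and 11.9 CPM with siNT.

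**Figure D4:**
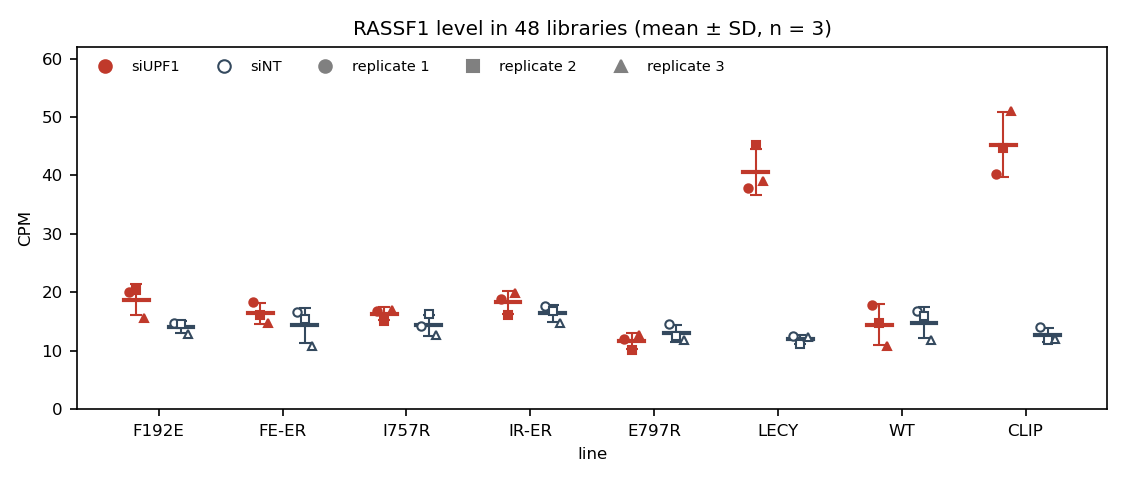
RASSF1 level in CPM in each of the 48 libraries, by line, with siUPF1 filled and siNT open, the replicate number as the marker's shape, and the mean ± SD of 3 libraries as a bar. The siUPF1 libraries of LECY cells (37.8 to 45.2) and CLIP cells (40.2 to 51.1) lie above all others, which stay at or below 20.4.

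As a log2 change of siUPF1 over siNT, RASSF1 moved by -0.04 (95% interval -0.37 to 0.29) in WT cells and 1.84 (1.54 to 2.15) in CLIP cells, values that served to choose it and carry no test. In LECY cells RASSF1 rose by 1.76 (SE 0.16; edgeR adjusted p = 1.38e-11). In F192E cells it rose by 0.42 (SE 0.15; edgeR adjusted p = 0.0455), a call that was lost on leaving out any 1 of the 3 siNT libraries or siUPF1 replicate 1 or 2 (edgeR adjusted p 0.0659 to 0.175). The changes in FE-ER cells (0.20, 95% interval -0.12 to 0.52), I757R cells (0.19, -0.13 to 0.50), IR-ER cells (0.15, -0.16 to 0.46) and E797R cells (-0.15, -0.48 to 0.18) did not pass, with edgeR adjusted p of 0.43 to 0.613.

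The difference between the LECY response and that of each other mutant was tested after the values had been seen. The RASSF1 log2 change in LECY cells exceeded that in F192E cells by 1.34 (SE 0.22; edgeR adjusted p = 0.00199; 0.192% of all genes were called for this difference). It exceeded that in FE-ER cells by 1.56 (edgeR adjusted p = 2.88e-05; 0.976% called) and that in I757R cells by 1.58 (edgeR adjusted p = 7.61e-06; 2.14% called). It exceeded that in IR-ER cells by 1.61 (edgeR adjusted p = 6.21e-06; 1.93% called) and that in E797R cells by 1.91 (edgeR adjusted p = 2.29e-07; 3.78% called). Against CLIP cells the LECY response differed by -0.08 (95% interval -0.52 to 0.35), given with no test. With siUPF1 the LECY level of RASSF1 was above that of F192E cells by 1.11, of FE-ER cells by 1.31, of I757R cells by 1.31, of IR-ER cells by 1.16 and of E797R cells by 1.79 on the log2 scale, with edgeR adjusted p between 2.25e-11 and 3.86e-06. In these 5 comparisons 1.79% (F192E), 4.51% (FE-ER), 7.04% (I757R), 8.68% (IR-ER) and 15.8% (E797R) of all genes were called.

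The RASSF1 responses of FE-ER and IR-ER cells were also set against those of the F192E, I757R and E797R lines. The response in FE-ER cells differed from that in F192E cells by -0.22 (95% interval -0.67 to 0.23) and from that in E797R cells by 0.35 (-0.11 to 0.81). The response in IR-ER cells differed from that in I757R cells by -0.04 (-0.48 to 0.41) and from that in E797R cells by 0.30 (-0.16 to 0.76). None of these 4 differences passed (edgeR adjusted p = 1 each, with 0.00% of all genes called in each comparison), and their intervals ran as far as -0.67 and 0.81.

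Ordered by mean level over the 16 groups, RASSF1 stood at 45.3 ± 5.48 CPM in CLIP siUPF1 and 40.7 ± 3.97 CPM in LECY siUPF1, which overlapped, and then dropped to 18.7 ± 2.68 CPM in F192E siUPF1 (SD, n = 3 each). From there each group overlapped with the next, down to 11.6 ± 1.40 CPM in E797R siUPF1. The 5 genes whose group means ran most like those of RASSF1 over the 16 groups were SNHG15 (Pearson r of 0.978), CCT6P1 (0.9754), SNHG7 (0.969), PRPF38B (0.965) and DNAJC25 (0.964). SNHG15 and SNHG7 are host transcripts of small nucleolar RNAs. SNHG15 averaged 68.99 CPM in LECY siUPF1, 34.45 CPM in WT siUPF1 and 71.52 CPM in CLIP siUPF1. These correlations describe groups that share the CLIP and LECY knockdown values and carry no test.

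Genes around RASSF1 did not share its values. RASSF1-AS1, which overlaps RASSF1 on the opposite strand, had group means of at most 0.614 CPM, and ZMYND10, 130 bases away, of at most 0.757 CPM. TUSC2, 1531 bases away on the same strand, had group means between 31.2 and 40.8 CPM and was called in 0 of 8 lines (edgeR; log2 changes -0.20 to 0.14). Whether the counting used strand is not given in the sources used here.

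RASSF2, a K-Ras binding member that stabilises the Hippo kinases, moved the other way and in every line. In LECY cells it stood at 7.04, 4.82 and 10.9 CPM with siUPF1, against 16.8, 15.9 and 24.02 CPM with siNT. In WT cells it stood at 6.77, 6.26 and 12.1 CPM with siUPF1, against 15.4, 12.5 and 22.0 CPM with siNT. In CLIP cells it stood at 8.94, 6.25 and 7.14 CPM with siUPF1, against 21.1, 16.03 and 20.1 CPM with siNT. In these 3 lines every siUPF1 library lay below every siNT library of the line. Of all genes tested, this held for 17.6% (F192E), 13.9% (I757R), 13.6% (E797R), 16.4% (FE-ER), 14.6% (IR-ER), 18.8% (LECY), 12.8% (WT) and 22.6% (CLIP).

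The remaining mutants gave RASSF2 values in the same range. In F192E cells it stood at 10.4, 6.60 and 13.5 CPM with siUPF1, against 19.3, 12.7 and 20.8 CPM with siNT. In FE-ER cells it stood at 11.0, 6.60 and 12.1 CPM with siUPF1, against 22.5, 13.5 and 20.3 CPM with siNT. The groups overlapped in F192E cells and not in FE-ER cells. In I757R cells it stood at 8.001, 6.15 and 15.01 CPM with siUPF1, against 21.8, 14.6 and 22.9 CPM with siNT, which overlapped. In IR-ER cells it stood at 8.21, 7.86 and 11.4 CPM with siUPF1, against 17.6, 15.5 and 23.4 CPM with siNT. The IR-ER groups were apart, as were those of E797R cells. In E797R cells it stood at 8.27, 8.55 and 14.1 CPM with siUPF1, against 16.2, 15.1 and 25.0 CPM with siNT.

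RASSF2 was called lower in 6 of 8 lines, and its log2 change was negative in all 8. Its log2 change was -0.93 in FE-ER (edgeR adjusted p = 0.0363), -1.03 in I757R (edgeR adjusted p = 0.0219), -1.05 in IR-ER (edgeR adjusted p = 0.0205), -1.28 in LECY (edgeR adjusted p = 0.00261), -0.97 in WT (edgeR adjusted p = 0.0412) and -1.36 in CLIP cells (edgeR adjusted p = 0.0011). Of all genes tested, 5.68% were called lower in at least 6 of 8 lines. The changes in F192E cells (-0.80, edgeR adjusted p = 0.0607) and E797R cells (-0.84, edgeR adjusted p = 0.0673) did not pass. Both passed with the replicate number as a block (edgeR adjusted p = 5.05e-05 and 5.12e-05), with no filter (0.000211 and 0.000263) and in DESeq2 (adjusted p = 0.0492 and 0.0393). With the block 5773 (F192E) and 4583 (E797R) of 16697 genes were called, against 3648 and 2682 without it. In same-numbered pairs siUPF1 was lower in 24 of 24, with a ratio of siUPF1 to siNT of 0.303 to 0.655 and a median of 0.487. The share of all genes that were lower in 24 of 24 pairs was not computed. Replicate 2 was the lowest library in 15 of 16 groups and replicate 3 the highest in 13, so the spread within a group followed the replicate number.

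In the fits without the replicate block, single libraries decided several of these RASSF2 calls. Leaving out a library was not run with the block. The WT call was lost without siUPF1 replicate 1 or 2 or siNT replicate 1 or 3 (edgeR adjusted p 0.0571 to 0.24), and the FE-ER call without siUPF1 replicate 1 or 2 or siNT replicate 1 or 3 (0.0638 to 0.166). The I757R call was lost without the same 4 libraries of that line (edgeR adjusted p 0.0755 to 0.12), and the IR-ER call without siUPF1 replicate 1 or 2 or siNT replicate 3 (0.0711 to 0.0939). The LECY and CLIP calls held in all 6 such fits each. The RASSF2 responses of LECY and CLIP cells differed by 0.08 (95% interval -0.85 to 1.01), and those of WT and CLIP cells by 0.39 (-0.55 to 1.33), neither passing the test (edgeR adjusted p = 1 and 0.817). RASSF2 lies on chromosome 20 from 4780023 to 4823645, and none of its 3 annotated transcripts is of the NMD type.

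RASSF5, known as RAPL in lymphocytes where it carries Rap signals to integrins, rose with siUPF1. It stood at 29.9, 23.6 and 32.9 CPM in WT cells with siUPF1, against 14.1, 11.3 and 12.5 CPM in WT cells with siNT. In E797R cells it stood at 29.6, 28.3 and 31.5 CPM with siUPF1, against 16.2, 12.97 and 16.9 CPM with siNT. In LECY cells it stood at 16.5, 15.6 and 19.8 CPM with siUPF1, against 14.9, 10.3 and 16.7 CPM with siNT. In WT and E797R cells all siUPF1 libraries lay above the siNT ones, as in 13.2% (WT) and 15.0% (E797R) of all genes tested. The RASSF5 groups of LECY cells overlapped. In CLIP cells it stood at 16.9, 13.6 and 17.2 CPM with siUPF1, against 13.8, 9.39 and 12.4 CPM with siNT, with 1 siNT library above the lowest siUPF1 library.

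In the 4 remaining mutants the RASSF5 siUPF1 libraries all lay above the siNT ones, as they did in 18.8% (F192E), 17.6% (FE-ER), 14.7% (I757R) and 17.1% (IR-ER) of all genes tested. In F192E cells it stood at 21.2, 21.1 and 23.8 CPM with siUPF1, against 14.4, 10.9 and 16.2 CPM with siNT. In FE-ER cells it stood at 26.5, 17.6 and 25.1 CPM with siUPF1, against 16, 10.8 and 17.4 CPM with siNT. The gap in FE-ER cells was narrow. In I757R cells it stood at 26.6, 20.6 and 24.9 CPM with siUPF1, against 13.8, 11.9 and 14.3 CPM with siNT. In IR-ER cells it stood at 23.7, 25.1 and 28.0 CPM with siUPF1, against 13.9, 11.8 and 18.7 CPM with siNT.

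RASSF5 was called higher in 6 of 8 lines, as were 6.56% of all genes tested in at least 6. Its log2 change was 0.66 in F192E (edgeR adjusted p = 0.00659), 0.64 in FE-ER (edgeR adjusted p = 0.0111), 0.85 in I757R (edgeR adjusted p = 0.000872), 0.80 in IR-ER (edgeR adjusted p = 0.00174), 0.96 in E797R (edgeR adjusted p = 0.000197) and 1.20 in WT (edgeR adjusted p = 1.05e-05). The FE-ER call was lost without siUPF1 replicate 1 or 3 or siNT replicate 2 (edgeR adjusted p 0.0572 to 0.0951), and the F192E call without siNT replicate 2 (0.063). In LECY cells (0.32, edgeR adjusted p = 0.205) and CLIP cells (0.43, edgeR adjusted p = 0.0768) it did not pass. With the replicate block it did (edgeR adjusted p = 0.0243 and 0.00207), as did 6941 (LECY) and 7619 (CLIP) of 16697 genes. Same-numbered pairs had siUPF1 higher in 24 of 24, with ratios of 1.11 to 2.63 and a median of 1.68. The share of all genes that were higher in 24 of 24 pairs was not computed.

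**Figure D5:**
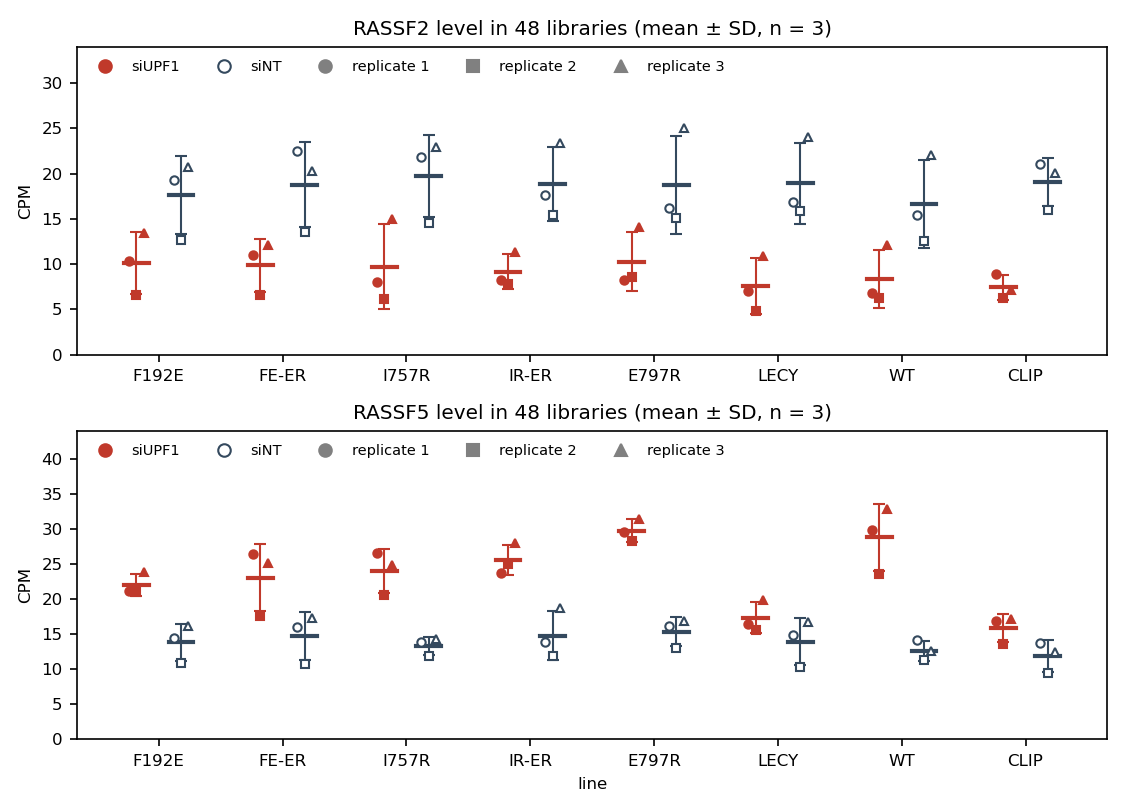
RASSF2 (top) and RASSF5 (bottom) in CPM in each of the 48 libraries, by line, with siUPF1 filled and siNT open, the replicate number as the marker's shape, and the mean ± SD of 3 libraries as a bar. RASSF2 is lower and RASSF5 higher with siUPF1 in all 24 same-numbered pairs, and the RASSF5 siUPF1 means of LECY cells (17.3) and CLIP cells (15.9) are the lowest of the 8 lines. The share of all genes with 24 such pairs was not computed.

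With siUPF1 the lines therefore ordered differently for RASSF5 than for RASSF1. RASSF5 was higher than in CLIP cells by 0.61 in I757R cells (edgeR adjusted p = 0.0264; 8.74% of all genes called), by 0.69 in IR-ER cells (edgeR adjusted p = 0.0089; 10.2% called), by 0.91 in E797R cells (edgeR adjusted p = 0.00023; 18.5% called) and by 0.87 in WT cells (edgeR adjusted p = 0.000593; 14.1% called). In F192E cells (0.47, edgeR adjusted p = 0.206; 2.41% of all genes called) and FE-ER cells (0.55, edgeR adjusted p = 0.0706; 5.68% called) the difference from CLIP cells did not pass, and the FE-ER one passed with the replicate block (edgeR adjusted p = 0.00052). In LECY cells RASSF5 was lower than in WT cells by 0.73 (fold of 0.603; edgeR adjusted p = 0.00418; 13.5% of all genes called), and it differed from CLIP cells by 0.14 (95% interval -0.23 to 0.51; edgeR adjusted p = 1; 0.00599% called, or 1 gene). The I757R difference from CLIP cells was lost without siUPF1 replicate 1 or 3 of I757R or 2 or 3 of CLIP (edgeR adjusted p 0.0532 to 0.16), and the IR-ER one without siUPF1 replicate 3 of IR-ER or 2 of CLIP (0.0565 to 0.077).

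The difference of the RASSF5 responses was tested directly. The log2 change in LECY cells was below that in WT cells by 0.88 (difference -0.88, SE 0.27; edgeR adjusted p = 0.0585; 3.31% of all genes called). It passed with the replicate block (edgeR adjusted p = 0.000285), with no filter (0.0266) and in DESeq2 (adjusted p = 0.0314). The log2 change in WT cells was above that in CLIP cells by 0.77 (SE 0.27; edgeR adjusted p = 0.101), and passed with the block (edgeR adjusted p = 0.00143). EIF2D, a translation factor gene that overlaps the end of RASSF5 on the opposite strand, had group means of 41.2 to 61.7 CPM and was called higher in 7 of 8 lines (log2 changes 0.29 to 0.42). Of all genes tested, 6.56% were called higher in at least 6 of 8 lines. The part of EIF2D in the RASSF5 values was not tested. RASSF5 lies on chromosome 1 from 206507530 to 206589448 and has no annotated NMD-type transcript.

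RASSF4, a low member known to bind the Hippo kinase STK4, had its lowest group means in the siUPF1 groups of CLIP and LECY cells, the groups where RASSF1 was highest. In LECY cells it stood at 1.28, 0.731 and 0.529 CPM with siUPF1, against 0.566, 1.61 and 3.53 CPM with siNT. In CLIP cells it stood at 0.679, 0.643 and 0.566 CPM with siUPF1, against 0.928, 1.51 and 2.04 CPM with siNT. The CLIP siUPF1 libraries all lay below the siNT ones, as in 22.6% of all genes tested, and the LECY groups overlapped. The log2 change was -1.23 in LECY cells (edgeR adjusted p = 0.071) and -1.26 in CLIP cells (edgeR adjusted p = 0.0651), and neither passed. Both passed with the replicate block (edgeR adjusted p = 0.0133 and 0.0145), as did 6941 (LECY) and 7619 (CLIP) of 16697 genes. In the other 6 lines the RASSF4 log2 change lay between -0.31 (I757R) and 0.15 (E797R). With siUPF1, RASSF4 was higher in E797R cells (2.33, 1.51 and 4.25 CPM) than in CLIP cells by 2.10 (SE 0.51, edgeR adjusted p = 0.00254, or 0.0532 without siUPF1 replicate 3 of E797R). In this comparison 18.5% of all genes were called. The siNT mean was likewise higher in E797R cells (2.52 ± 1.20 CPM) than in CLIP cells (1.49 ± 0.558 CPM, SD, n = 3 each). With siUPF1 RASSF4 was higher than in CLIP cells with the block in FE-ER and WT cells too (edgeR adjusted p = 0.0415 and 0.0363, against 0.177 and 0.122 without it). These values rest on 4 to 38 counts per library.

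RASSF6, a member linked to apoptosis, stood at 0.569 to 3.60 CPM over all 48 libraries, or 4 to 41 counts. In E797R cells it stood at 2.54, 1.68 and 2.35 CPM with siUPF1, against 0.968, 0.998 and 0.578 CPM with siNT. In IR-ER cells it stood at 1.56, 2.10 and 3.60 CPM with siUPF1, against 0.569, 1.73 and 0.635 CPM with siNT. In CLIP cells it stood at 2.04, 2.30 and 1.47 CPM with siUPF1, against 0.928, 0.886 and 0.978 CPM with siNT. The E797R and CLIP groups did not overlap, and the IR-ER groups did. Of all genes tested, every siUPF1 library lay above every siNT library in 15.0% (E797R) and 23.3% (CLIP). RASSF6 was called higher in 3 of 8 lines: by 1.26 in IR-ER (edgeR adjusted p = 0.0313), 1.35 in E797R (edgeR adjusted p = 0.0261) and 1.05 in CLIP cells (edgeR adjusted p = 0.046). In these lines 9.21% (IR-ER), 8.34% (E797R) and 18.1% (CLIP) of all genes tested were called higher.

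In the fits without the replicate block, each RASSF6 call depended on single libraries. The CLIP call was lost without any 1 of the libraries other than siUPF1 replicate 3 (edgeR adjusted p 0.0799 to 0.142), and the E797R call without any other than siUPF1 replicate 2 (0.0523 to 0.101). The IR-ER call was lost without siUPF1 replicate 3 or siNT replicate 1 or 3 (edgeR adjusted p 0.146 to 0.233). In the remaining lines the RASSF6 log2 change was 0.91 (F192E), 0.98 (FE-ER), 0.99 (I757R), 0.51 (LECY) and 0.25 (WT), with edgeR adjusted p of 0.0865 to 0.768. The F192E and I757R changes passed with the replicate block (edgeR adjusted p = 0.0476 and 0.0418), as did 5773 (F192E) and 4756 (I757R) of 16697 genes.

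RASSF3, the most abundant member per length and known to promote p53 activity through MDM2, had small positive changes in all 8 lines. In F192E cells it stood at 53.6, 69.1 and 62.8 CPM with siUPF1, against 42.8, 50.3 and 47.0 CPM with siNT. The siUPF1 libraries there all lay above the siNT ones, as in 18.8% of all genes tested. It rose by 0.40 in F192E cells (SE 0.11; edgeR adjusted p = 0.00772) and by 0.33 in FE-ER cells (SE 0.11; edgeR adjusted p = 0.0377). The F192E call was lost without siUPF1 replicate 2 (edgeR adjusted p = 0.0696). The FE-ER call was lost without any 1 library other than siUPF1 replicate 2 (edgeR adjusted p 0.0574 to 0.237). In LECY cells the change of 0.27 did not pass (edgeR adjusted p = 0.0739), and it passed with the replicate block (0.0179) and without siUPF1 replicate 1 (0.0342) or siNT replicate 2 (0.0473). With the block 6941 of 16697 genes were called in LECY cells. With siUPF1, RASSF3 was lower in E797R cells (40.3, 38.6 and 46.3 CPM) than in CLIP cells (51.4, 55.1 and 57.7 CPM). The log2 difference was -0.39 (edgeR adjusted p = 0.0135, with 18.5% of all genes called). The siNT mean was likewise lower in E797R cells (39.8 ± 4.31 CPM) than in CLIP cells (49.3 ± 5.14 CPM, SD, n = 3 each). The RASSF3 change of siUPF1 over siNT was 0.07 in E797R and 0.15 in CLIP cells, and neither passed.

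RASSF8, a member tied to adherens junctions, and RASSF7, a member tied to microtubules in mitosis, are the N-terminal kind, and both changed little. RASSF8 stood at 50.5 to 70.7 CPM in siUPF1 libraries, against 42.5 to 61.7 CPM in siNT libraries. Its log2 change lay between 0.04 (FE-ER) and 0.31 (E797R), and it passed in E797R cells only (edgeR adjusted p = 0.0488), a call lost without siUPF1 replicate 1 or 2 or siNT replicate 1 or 3 (0.0522 to 0.278). RASSF7 stood at 5.90 to 12.5 CPM in siUPF1 libraries, against 6.71 to 10.7 CPM in siNT libraries. It was called in 0 of 8 lines, with log2 changes between -0.35 (WT) and 0.16 (CLIP) and edgeR adjusted p of 0.324 to 0.945. RASSF7 has 2 annotated NMD-type transcripts, as RASSF1 does, and in LECY cells its change was 0.07 (95% interval -0.35 to 0.50), against 1.76 for RASSF1.

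With siNT, where endogenous UPF1 was present, no relative of RASSF1 passed between lines. The 13 siNT comparisons of a line with WT or CLIP gave edgeR adjusted p of 0.995 or above for RASSF2 to RASSF8, and at most 0.0299% of all genes were called in any of them. RASSF1 means with siNT lay between 12.0 ± 0.787 CPM (LECY) and 16.4 ± 1.49 CPM (IR-ER), given without a test against WT or CLIP.

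The partners of the family were described from lists chosen with earlier results known. Of all genes tested, siUPF1 gave higher calls for 11.8% (F192E), 8.13% (I757R), 8.34% (E797R), 10.1% (FE-ER), 9.21% (IR-ER), 15.8% (LECY), 8.43% (WT) and 18.1% (CLIP). It gave lower calls for 10.1% (F192E), 7.79% (I757R), 7.73% (E797R), 8.52% (FE-ER), 7.80% (IR-ER), 13.6% (LECY), 6.98% (WT) and 15.6% (CLIP). In at least 6 of 8 lines 6.56% of all genes tested were called higher and 5.68% lower. The share called in all 8 lines was not computed. With 9 to 25 genes a list, the counts that follow are not read as differing from these shares. In the Hippo core list of 25 genes, all tested, siUPF1 gave 3 higher and 5 lower calls in LECY cells, 6 higher and 1 lower in WT cells and 4 higher and 4 lower in CLIP cells; in the other lines 4 to 5 were higher and 1 to 4 lower. The 4 largest called changes in CLIP cells were those of TAOK1 (-0.94), an upstream kinase, VGLL4 (-0.67), a rival of YAP1 for TEAD factors, MOB1B (-0.64), a kinase cofactor, and YAP1 (-0.58), the coactivator the pathway holds back. TAOK1 fell in all 8 lines, by 0.56 (E797R) to 0.94 (CLIP), while YAP1 fell in F192E, LECY and CLIP cells and did not pass in the other 5. STK3 and STK4, named after their values were seen because they pair with the SARAH domain, went apart: STK3 was called higher in 8 of 8 lines (log2 changes 0.55 to 0.75) and STK4 in 0 of 8 (log2 changes -0.01 to 0.12).

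Of 14 genes listed as partners of RASSF proteins, 4 were higher and 3 lower in LECY cells, 1 higher and 3 lower in WT cells and 3 higher and 3 lower in CLIP cells. MOAP1, a pro-apoptotic partner of RASSF1, rose by 0.90 in LECY cells (edgeR adjusted p = 1.15e-05) and 0.94 in CLIP cells (edgeR adjusted p = 3.9e-06), and in the other 6 lines lay between -0.27 and 0.34 without passing. AURKA, a mitotic kinase, fell in all 8 lines by 0.33 to 0.55, and PPP1R13B, a p53 cofactor, rose in all 8 by 0.35 to 0.55. MDM2, the p53 ubiquitin ligase, fell by 0.40 to 0.60 in 7 of 8 lines. In E797R cells its mean was 272.8 CPM with siUPF1, against 340.5 CPM with siNT. Of all genes tested, 6.56% were called higher and 5.68% lower in at least 6 of 8 lines. Among 9 tested genes of a YAP target list, AJUBA was called lower in all 8 lines (log2 changes -0.67 to -0.44), and 0 to 2 genes per line were called higher. Of 11 Ras and Rap GTPases, 0 or 1 was called higher per line and 0 lower, the one in CLIP cells being RRAS2 (0.33). RASSF9, a further relative outside the 8, was called in 0 of 8 lines, and RASSF10 did not pass the filter. The median log2 change in CLIP cells was 0.06 for the Hippo core list, 0.07 for the partners, 0.04 for the GTPases and -0.13 for the YAP targets, beside -0.03 for all genes tested.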

How the data were processed

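Per the labels' protocols, total RNA was depleted of ribosomal RNA and sequenced in paired ends. The authors deposited estimated counts per gene (expected counts of RSEM); the submitters' processing notes name cutadapt, STAR, RSEM, DESeq2 and hg38, and versions, annotation release and strandedness are not given in the sources used here. Of these values 9.16% were not whole and were rounded. Library totals of 6016999 to 14551820 limit precision for RASSF4 and RASSF6.

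From the deposited counts, edgeR 4.0.16 (R 4.3.3) was run with TMM scaling, a minimum count of 10 (filterByExpr), 1 model of 16 groups with robust quasi-likelihood F tests, two-sided, and Benjamini-Hochberg adjustment over 16697 genes, called under 0.05. Standard errors come from the F statistic, and intervals are at 95 percent. CPM use TMM-scaled totals; values per kilobase divide by the union of exons in GENCODE 29, matched by gene ID without version. Sequences were read from GENCODE 29 transcripts. The method was tested on simulated data drawn with no effect of the replicate number, so that test does not cover paired samples.

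The members and gene lists were chosen with earlier results of these data known. RASSF1 was not tested in any contrast with CLIP or WT. Named genes are the members, genes overlapping or within 5000 bases of them, UPF1, the 5 genes most like RASSF1 and, in each list, up to 4 called with the largest change in CLIP cells. Same-numbered libraries deviated together (correlation of deviations from group means over 0.1 for all 3 numbers in 8 of 8 knockdown contrasts, 0.115 to 0.469), so the numbers pair the samples there. Alternatives were RLE scaling, no filter, a replicate block, DESeq2 1.42.0, the groups of a contrast alone, and leaving out each library. Leaving out each library was run without the block.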

Additional observations from a re-analysis of the deposited data

Results flagged for a closer look

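The RASSF1 response to siUPF1 differed between mutant lines by a direct test of the difference. The log2 change in LECY cells was above that in F192E cells by 1.34, above that in FE-ER cells by 1.56, above that in I757R cells by 1.58, above that in IR-ER cells by 1.61 and above that in E797R cells by 1.91 (edgeR adjusted p between 2.29e-07 and 0.00199). All 3 LECY siUPF1 libraries (37.8 to 45.2 CPM) lay above all siUPF1 libraries of those 5 mutants (10.1 to 20.4 CPM). The share of all genes that lay apart in this way was not computed. These comparisons were chosen after the values had been seen. The level of UPF1 with siUPF1 was 3260 ± 224 CPM in LECY cells and 3839 ± 34.9 to 4819 ± 261 CPM in the other 5 mutants (SD, n = 3 each); its part in the difference was not tested.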

How the results depend on the processing

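The RASSF1 change in LECY cells, its 5 differences from the other mutants and the RASSF2 changes in LECY and CLIP cells kept their direction and their side of the threshold in every alternative fit. The RASSF1 change in F192E cells did not: it was 0.41 with RLE scaling (edgeR adjusted p = 0.0501), 0.41 with no filter (0.113) and 0.40 with the groups of the contrast alone (0.0725), and 0.35 to 0.53 on leaving out 1 library. The cause was not tested.

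The number of relatives called moved in most lines. In F192E cells it was 2, with 4 under the replicate block, 3 with no filter, in DESeq2 and from the contrast's groups alone, and 1 to 3 on leaving out 1 library. In FE-ER cells it was 3, with 2 with no filter or from the contrast's groups alone and 0 to 2 on leaving out 1 library. In I757R cells it was 2, with 3 under the block, 1 from the contrast's groups alone and 1 to 2 on leaving out 1 library. In IR-ER cells it was 3, with 2 with no filter or from the contrast's groups alone and 1 to 3 on leaving out 1 library. In E797R cells it was 3, with 4 under the block and in DESeq2, 2 with RLE scaling or no filter, 1 from the contrast's groups alone and 1 to 3 on leaving out 1 library. In LECY cells it was 1, with 4 under the block and 1 to 3 on leaving out 1 library. In WT cells it was 2, with 1 from the contrast's groups alone and 1 to 2 on leaving out 1 library. In CLIP cells it was 2, with 1 with no filter, 4 under the block, 1 in DESeq2 and 1 to 3 on leaving out 1 library. The number of all genes called moved as well. With the block it rose from 4917 to 6941 in LECY cells and from 5622 to 7619 in CLIP cells. It rose from 3648 to 5773 in F192E cells, from 2682 to 4583 in E797R cells and from 2658 to 4756 in I757R cells. It was lower than in the main fit in every line with no filter, from the contrast's groups alone and on leaving out 1 library. With so few relatives, their counts are not read apart from these shifts.

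Tested values that changed sign were all uncalled, and on leaving out 1 library they ran as follows. RASSF3 ran over -0.0084 to 0.13 in E797R cells, and RASSF8 over -0.039 to 0.11 in FE-ER cells. RASSF4 ran over -0.54 to 0.26 in FE-ER, -0.22 to 0.24 in IR-ER, -0.34 to 0.51 in E797R and -0.37 to 0.45 in WT cells, and over -0.055 to 0.68 for LECY against CLIP with siUPF1. RASSF6 ran over -0.12 to 0.87 in LECY and -0.10 to 0.47 in WT cells. RASSF7 ran over -0.14 to 0.26 in F192E, -0.43 to 0.063 in FE-ER, -0.15 to 0.24 in I757R, -0.21 to 0.088 in IR-ER, -0.17 to 0.020 in E797R and -0.035 to 0.21 in LECY cells. RASSF4 in IR-ER cells was -0.0081 with no filter. Some RASSF1 values with no test also changed sign. The change in WT cells ran over -0.22 to 0.15, and the LECY response minus that of CLIP over -0.17 to 0.0073. With siUPF1, RASSF1 against WT ran over -0.0074 to 0.36 (FE-ER) and -0.0026 to 0.37 (I757R). The RASSF1 response minus that of WT ran over -0.016 to 0.35 (IR-ER) and -0.29 to 0.079 (E797R). Calls that alternatives other than left-out libraries ended were those of RASSF2 in WT and I757R cells, of RASSF3 in FE-ER cells, of RASSF6 in IR-ER, E797R and CLIP cells and of RASSF8 in E797R cells, with adjusted p of 0.0509 to 0.157.

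Of 108 single values, the replicate block brought 17 past the threshold, the paired ones being given beside their results, and it took none away. How many of all genes were called with the block is given for changes of siUPF1 over siNT only. The other 91 single values counted as unchanged, and they include RASSF1 values against WT or CLIP, which carry no test and no threshold. For those, unchanged means only that the value moved by less than the spread between libraries. For RASSF5 in F192E cells against CLIP with siUPF1, where the numbers do not pair the samples, the block gave an edgeR adjusted p of 0.00306 beside 0.206. For RASSF4 against CLIP with siUPF1, where the numbers do not pair the samples either, the block gave 0.0457 in F192E cells and 0.0206 in IR-ER cells, and the contrast's groups alone 0.0473 in IR-ER cells. Leaving out libraries was not run for the RASSF1 responses of FE-ER and IR-ER cells against F192E, I757R and E797R cells, for the differences of RASSF5 responses or for the RASSF1 levels of LECY against the other mutants with siUPF1, and no alternative was run for RASSF3 between E797R and CLIP cells or for the siNT comparisons. RASSF4 and RASSF6, at 4 to 41 counts per library, are limited by depth.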
